A study of Homo sapiens with 6 samples.

Results

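Amino acid transporters are the membrane proteins through which cells take up, exchange and recycle amino acids, and 34 of their genes are described here, out of 60107 gene IDs in the count table. The members were given as a list of carriers of the plasma membrane and the lysosome, leaving out the cystine transporter SLC7A11, and were found in the table by Ensembl ID through their symbols. All 34 were found and all 34 passed the filter on low counts. They comprise 6 glutamine carriers (SLC1A5, SLC38A1, SLC38A2, SLC38A3, SLC38A5 and SLC38A7) and 28 other transporters.

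RNA was measured in 6 libraries of H9, an established human embryonic stem cell line, collected on day 9 of a 10-day protocol that drives them toward nephron progenitors, from which the filtering units of the kidney form. The 3 libraries with glutamine came from cells in complete medium, and the 3 without came from cells deprived of glutamine from day 0. Both groups share the line, the protocol and the day of collection, and all libraries come from 1 cell line. The labels do not say whether the replicates were separate cultures, so p-values measure the spread between these libraries only. In bulk RNA, fewer cells of a type and less RNA per cell cannot be told apart.

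The libraries held 78220507 to 84746566 counts. Replicate 1 with glutamine stood apart from its group, with a Pearson correlation across genes, on log2 CPM, of 0.9758 and 0.9762 to its own group and of 0.9908 to 0.9927 to the libraries lacking glutamine. Members whose call at an adjusted p of 0.05 or 0.1 changed without it are therefore given in both fits. All 12 nephron progenitor and intermediate mesoderm markers passed the filter. HOXD11 did so through the libraries without glutamine, with 44, 0 and 1 counts with glutamine and 277, 418 and 475 without. Of 5 pluripotency genes, NANOG, POU5F1 and TDGF1 did not pass, whereas DPPA4 (113 to 269 CPM over all libraries) and ZFP42 (7.18 to 11.8 CPM) did. Passing also were 5 of 6 somite, 5 of 5 neural ectoderm and 2 of 5 endoderm genes, so a pass does not set the type of cell. Markers of the proximal tubule, the kidney segment that reabsorbs amino acids, were low apart from LRP2 (15.8 to 29.8 CPM), and SLC22A6 had at most 0.0128 CPM.

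Most amino acids cross membranes by a division of labour. Sodium-driven carriers such as those of the SLC38 family load the cell with glutamine, and exchangers such as SLC7A5, held at the surface by the heavy chain SLC3A2, then trade intracellular glutamine for leucine and other essential amino acids. When amino acids run short, the kinase GCN2 is activated and translation of the transcription factor ATF4 increases. ATF4, paired with C/EBP proteins, binds composite elements of the type TGATGNAA in genes of amino acid uptake and synthesis.

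The stretches below show where this element occurs beside the start sites of the transporters, since ATF4, ASNS and several transporters had higher levels in each library without glutamine than in any with it. RefSeq windows of 300 bases, from 250 before to 50 after a start, were at hand for 27 of the 34 members (48 windows on GRCh38.p14). Both strands were searched, and 6 members held TGATGNAA. Each line gives the match in capitals, read 5′ to 3′ on the strand that carries it, with up to 10 flanking bases on each side.
SLC1A5, chr19:46784894-46784921, minus strand: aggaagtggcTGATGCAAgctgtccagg
SLC1A4, chr2:64989382-64989409, minus strand: cggctggagaTGATGCAAacgggagccg
SLC1A3, chr5:36596358-36596385, plus strand: aggaaatgacTGATGCAAagcagggtta
SLC3A2, chr11:62881726-62881748, minus strand: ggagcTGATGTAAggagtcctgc
SLC7A1, chr13:29595664-29595691, minus strand: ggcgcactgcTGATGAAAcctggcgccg
SLC38A1, chr12:46266503-46266530, minus strand: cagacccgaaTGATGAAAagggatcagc

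The 3 members of the SLC1 family carried the same 8 bases, TGATGCAA, and the other 3 members differed at the position left free in the motif. Relative to the RefSeq start in its window, the match began at base -97 in SLC1A5, -220 in SLC1A3, -7 in SLC1A4, -4 in SLC38A1, 8 in SLC7A1 and 38 in SLC3A2. It lay on the strand opposite to the gene in SLC1A4 and SLC3A2. Several of these starts are not the outermost of the gene: the start was 3780 bases inside the GENCODE 29 gene in SLC1A5, 3501 in SLC38A1, 922 in SLC1A4 and 25597 in SLC3A2, while in SLC7A1 it was the gene's own first base. In SLC1A3 the start lay outside the GENCODE gene. GENCODE places the match in an exon for SLC3A2 and SLC7A1, across the edge of an exon for SLC1A5, and in an intron for SLC1A4 and SLC38A1. Over all promoters, 3.62% of 35116 windows and 4.46% of 27305 genes held TGATGNAA. All 6 members with the element had every library without glutamine above every library with it, as had 6 of the 21 members with a window that lacks it. Across all tested genes with a window, the groups were separated in that direction for 24.2% of 413 genes with the element and 19.8% of 13364 without it. Of the motifs searched, only this element was set against direction over all genes. The looser TGANGNAA was also held by SLC36A1, which was lower without overlap, and by SLC38A4 and SLC43A2, whose groups overlapped. Another motif searched, CACGTG, was held by 8 of the 27 members (8.77% of all genes), and these did not share a direction. SLC1A5, SLC7A5 and SLC7A8 were higher without overlap, and SLC36A1 and SLC43A1 lower without overlap. In SLC38A5, SLC38A7 and SLC7A7 the groups overlapped. Whether TGATGNAA or any other motif had a part in any difference was not tested. A match is a run of letters and no evidence of binding.

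Per kilobase of exon, the 3 most abundant transporters were glutamine carriers, and these 3 were slightly higher without glutamine. The other glutamine carriers, SLC38A7, SLC38A3 and SLC38A5, ranked 14, 25 and 28 of the 34 with glutamine. SLC38A2, SLC38A1 and SLC1A5 were each higher in all 3 libraries without glutamine, by 0.14 to 0.36 on the log2 scale, whereas the low-abundance SLC38A5 was lower by 1.49. SLC38A3 and SLC38A7 differed by less than their standard errors. No glutamine carrier passed an adjusted p of 0.05 in edgeR's quasi-likelihood test of all 6 libraries, a threshold that 0.00442% of 22613 tested genes (1 gene) passed.

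SLC1A5 (ENSG00000105281), also named ASCT2, exchanges neutral amino acids with sodium and is a main route of glutamine into dividing cells. Its gene spans bases 46774883 to 46788594 of chromosome 19, minus strand (GENCODE 29, GRCh38). With glutamine, replicates 1, 2 and 3 had 71.0, 76.4 and 84.1 CPM (counts scaled to a common library total, with TMM factors), and without glutamine they had 99.7, 103 and 94.7 CPM; replicates are given in this order throughout. The groups did not overlap, and replicate 1 with glutamine was the lowest of all 6 libraries. The log2 fold change came to 0.36 with SE 0.08 (adjusted p 0.0721, edgeR). Without replicate 1 with glutamine it was 0.31 (SE 0.07, edgeR adjusted p 0.00886), and over 15 alternatives the adjusted p ran from 0.00886 to 0.265. An antisense gene, AC008622.2, shares 23.4% of its exon bases, and whether the counting used strand is not given in the sources used here.

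SLC38A1 and SLC38A2, the sodium-coupled neutral amino acid transporters SNAT1 and SNAT2, sit near each other on chromosome 12. SLC38A1 was at 485, 515 and 520 CPM with glutamine and at 569, 540 and 562 CPM without, a log2 difference of 0.14 with SE 0.06 (adjusted p 0.201, edgeR). SLC38A2 was at 431, 433 and 444 CPM with glutamine and at 470, 501 and 557 CPM without, a log2 difference of 0.23 with SE 0.08 (adjusted p 0.12, edgeR). In both genes all libraries without glutamine lay above all with it, and neither passed in the fit without replicate 1 with glutamine, at adjusted p of 0.199 and 0.0517 in edgeR. Per kilobase of exon these were the highest of the 34 transporters, SLC38A2 at 66.0 CPM per kilobase with glutamine and SLC38A1 at 50.6, followed by SLC1A5 at 23.2.

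SLC38A5, or SNAT5, which couples glutamine transport to proton exchange, ran the other way. It was at 0.998, 3.93 and 4.31 CPM with glutamine and at 1.24, 1.02 and 1.02 CPM without. Replicates 2 and 3 with glutamine were the only high libraries, and replicate 1 was as low as the libraries without glutamine. The log2 fold change came to -1.49 with SE 0.51 (adjusted p 0.117, edgeR) and, without that replicate, -1.90 (SE 0.15, edgeR adjusted p 1.1e-05). Over the alternatives its adjusted p ran from 1.1e-05 to 0.331.

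SLC38A3, or SNAT3, the glutamine carrier of liver and of the acid-stressed kidney, was at 5.61, 3.41 and 3.46 CPM with glutamine and at 4.55, 3.83 and 3.76 CPM without. SLC38A7, which lets glutamine and asparagine out of the lysosome, was at 36.6, 29.5 and 29.9 CPM with glutamine and at 28.8, 30.8 and 35.6 CPM without. In both genes the groups overlapped and the highest library was replicate 1 with glutamine. The log2 fold changes were -0.04 (SE 0.22) and -0.01 (SE 0.12), and their signs changed when that library was left out, to 0.24 and 0.10.

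**Figure D1:**
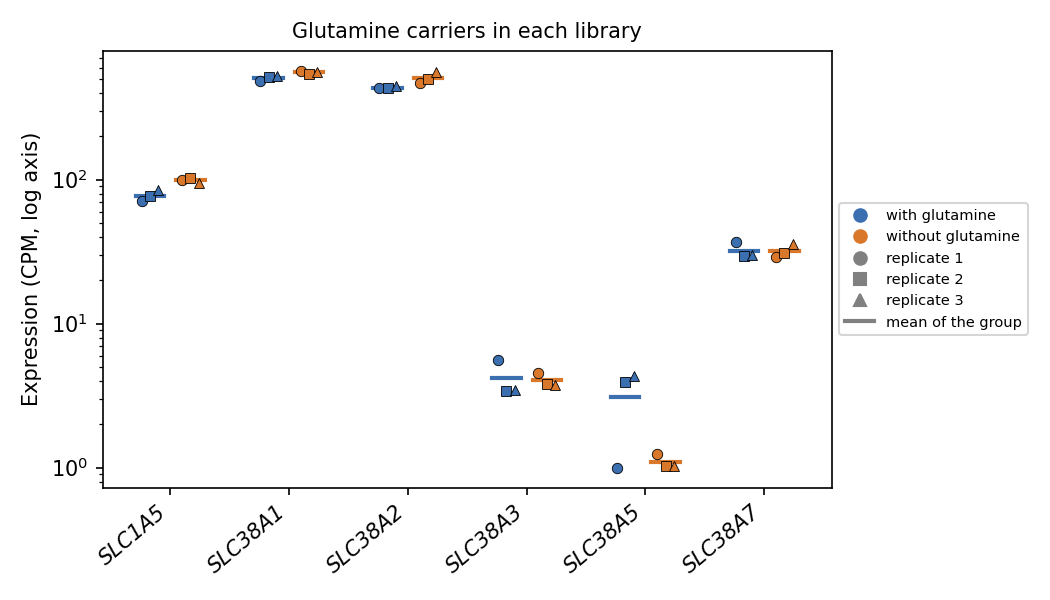
Expression of the 6 glutamine carriers in each library, in CPM on a log axis, with glutamine (blue) and without (orange); symbols mark the replicate and bars the group mean. SLC38A1 and SLC38A2 lie near 500 CPM with narrow spread, and SLC38A5 splits the group with glutamine, with replicate 1 at 0.998 CPM and the others at 3.93 and 4.31.

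Which of the glutamine carriers and the other transporters had the larger median difference depended on the libraries used. With all 6, the median log2 fold change was 0.06 for the glutamine carriers (3 higher, 3 lower), 0.07 for the 28 others (16 higher, 12 lower) and 0.001 for all tested genes. Without replicate 1 with glutamine, the medians were 0.165 for the glutamine carriers, 0.067 for the others and 0.008 for all tested genes. Leaving out each library in turn, the glutamine carriers had the larger median in 4 of 6 fits. At an edgeR adjusted p under 0.1, a looser threshold, 1 of 6 glutamine carriers and 9 of 28 others passed, 10 of 34 in all or 29.4%, beside 14.5% of all tested genes. Of these 10 members, 7 were higher without glutamine, beside 7.3% of all tested genes, and 3 were lower, beside 7.23%. Without replicate 1 with glutamine, 17 of 34 members had an edgeR adjusted p under 0.05 (50%, background 41.3%): 2 glutamine carriers and 15 others. Of the 17, 12 were higher (background 22.3%) and 5 lower (background 19%). At an adjusted p under 0.1 that fit gave 22 members (background 49.3%). With any other single library left out, none of the 34 passed 0.1. The 17 and the 22 were thus reached only when replicate 1 with glutamine was left out, and the 10 of the fit of all libraries were lost when any of the other 5 was.

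The exchangers that pass glutamine along with other neutral amino acids were counted with the 28. When SLC7A5, SLC7A6, SLC7A7, SLC7A8, their heavy chain SLC3A2 and the lysosomal SLC38A9 were moved to the glutamine carriers, the median was 0.18 for those 12 and 0.03 for the remaining 22, and 0.231 and 0.044 without replicate 1 with glutamine. This grouping places the larger median with the glutamine carriers, so the comparison depends on which genes are given that name. Summed per kilobase of exon, the 6 glutamine carriers reached 142 to 151 CPM per kilobase with glutamine and 164 to 175 without, and the 28 others 119 to 131 with and 153 to 163 without. Both sums were higher in every library without glutamine. The glutamine carriers' share of the total was 52.0%, 55.1% and 55.0% with glutamine and 51.6%, 50.5% and 53.4% without, so the shares overlapped between groups.

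**Figure D2:**
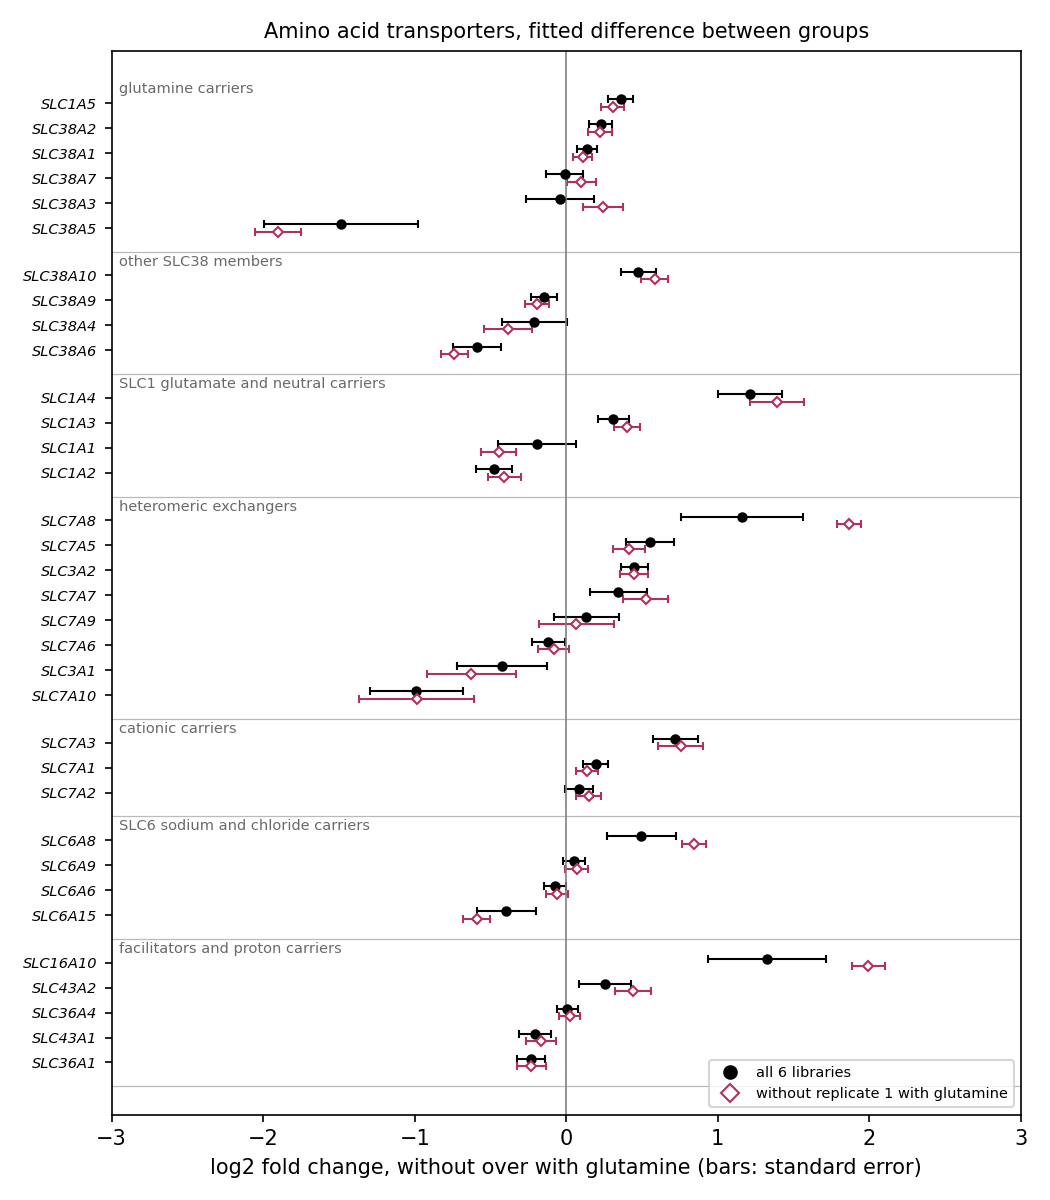
Fitted log2 fold change of each of the 34 transporters, without over with glutamine, grouped by family, with standard errors; filled circles are the fit of all 6 libraries and open diamonds the fit without replicate 1 with glutamine. SLC16A10, SLC1A4 and SLC7A8 lie farthest to the right and SLC38A5 farthest to the left, and SLC7A8 moves from 1.16 to 1.87 when that library is left out.

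The heavy chain SLC3A2 and its light chains SLC7A5 and SLC7A8 were higher without glutamine in every library, by 0.45 to 1.16 on the log2 scale. SLC3A2, or 4F2hc, which brings several SLC7 light chains to the surface, was at 94.7, 92.5 and 97.7 CPM with glutamine and at 118, 145 and 126 CPM without. Its groups were well apart and replicate 1 with glutamine sat with its own group. The log2 fold change came to 0.45 with SE 0.09 (adjusted p 0.0689, edgeR) with all libraries and 0.45 (SE 0.09, edgeR adjusted p 0.00362) without that replicate, and the adjusted p ran from 0.00362 to 0.259 over the alternatives.

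SLC7A5, or LAT1, which imports leucine and other large neutral amino acids in exchange for glutamine, was at 43.9, 56.4 and 66.2 CPM with glutamine and at 78.0, 92.6 and 73.9 CPM without. The groups did not overlap, and replicate 1 with glutamine was the lowest library. Its log2 fold change came to 0.55 with SE 0.16 (adjusted p 0.0879, edgeR), and to 0.41 (SE 0.11, edgeR adjusted p 0.0128) without that replicate. SLC7A5 has near-identical copies in the genome, of which SLC7A5P1 held 0.320 to 0.860 CPM and SLC7A5P2 no counts, so reads shared between the copies are uncertain.

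SLC7A8, or LAT2, a light chain for small and large neutral amino acids that is prominent in kidney epithelium, was at 93.8, 32.4 and 32.9 CPM with glutamine and at 112, 118 and 126 CPM without. The groups did not overlap, but replicate 1 with glutamine lay close to the libraries without. Its log2 fold change came to 1.16 with SE 0.40 (adjusted p 0.119, edgeR) with all libraries and 1.87 (SE 0.08, edgeR adjusted p 2.46e-07) without that replicate, the lowest of a range over the alternatives that reached 0.326. Nephron progenitor markers were also high in that library: summed over the 12 of the list, replicates 1, 2 and 3 with glutamine had 1665, 1054 and 984 CPM, compared with 1543 to 2067 CPM in the libraries without. Their part in the SLC7A8 difference was not tested. Of the 9 proximal tubule markers, whose sum was 28.6 to 33.5 CPM with glutamine and 19.8 to 23.8 without, LRP2 was lower without glutamine, and SLC34A1 and SLC22A6 had no counts in some libraries of each group.

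The make-up of the light chains differed between libraries. Of the summed level of the 5 SLC3A2 partners on the list per kilobase (SLC7A5, SLC7A6, SLC7A7, SLC7A8 and SLC7A10), SLC7A8 made up 54.9%, 26.3% and 24.2% in replicates 1, 2 and 3 with glutamine and 48.9%, 46.6% and 52.3% without. SLC7A5 made up 32.4%, 57.8% and 61.4% with and 43.0%, 46.1% and 38.6% without. By this measure of RNA, SLC7A5 had the largest share in replicates 2 and 3 with glutamine, and SLC7A8 in replicate 1 with glutamine. Without glutamine SLC7A8 was ahead by narrower margins, and the 2 shares were nearly equal in replicate 2 (46.6% and 46.1%). The summed light chains exceeded SLC3A2 in each library: 20.6 to 28.5 CPM per kilobase beside 17.9 to 18.9 for SLC3A2 with glutamine, and 38.2 to 42.3 beside 22.7 to 28 without.

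SLC7A11, the cystine and glutamate exchanger that also pairs with SLC3A2 and is not a member, was at 17.9 to 20.8 CPM with glutamine and 45.0 to 53.2 without, and was the 1 gene of the table under an adjusted p of 0.05 in edgeR (0.0488). SLC7A7, or y+LAT1, which exports arginine and lysine in exchange for neutral amino acids including glutamine, was at 1.90 to 2.96 CPM with and 2.88 to 3.18 without. SLC7A6, or y+LAT2, was at 21.0 to 22.7 CPM with and 18.3 to 22.9 without. SLC7A6 shares 44.4% of its exon bases with SLC7A6OS on the opposite strand. With all 6 libraries neither had an edgeR adjusted p under 0.1 (0.25 and 0.478). With replicate 1 with glutamine left out, SLC7A7 was higher by 0.53 on the log2 scale (SE 0.15, edgeR adjusted p 0.0187), whereas SLC7A6 was at 0.555.

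SLC7A10, a carrier of small neutral amino acids and D-serine, was scarcely detected, with 16, 17 and 14 counts with glutamine and 7, 11 and 6 counts without. These are 0.197, 0.218 and 0.178 CPM with and 0.0814, 0.140 and 0.0764 CPM without. The groups did not overlap, and the log2 fold change came to -0.99 with SE 0.31 (adjusted p 0.0991, edgeR). At 0.0636 in the fit without replicate 1 with glutamine it did not pass 0.05 there either. The renal cystine and dibasic amino acid pair SLC3A1 and SLC7A9, in which cystinuria mutations occur, was also near the limit of detection, at 0.198 to 0.371 and 0.419 to 0.586 CPM over all libraries. Both overlapped between groups, and SLC3A1 shares 29.4% of its exon bases with PREPL.

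Among the other SLC1 genes, SLC1A4 had one of the largest differences on the list. SLC1A4, or ASCT1, an exchanger of alanine, serine, cysteine and threonine that resembles SLC1A5 but does not favour glutamine, was at 12.7, 8.72 and 9.54 CPM with glutamine and at 17.8, 28.7 and 25.2 CPM without. All libraries without glutamine were above those with it. The log2 fold change came to 1.21 with SE 0.21 (adjusted p 0.068, edgeR), and 1.39 (SE 0.18, edgeR adjusted p 0.000244) without replicate 1 with glutamine. DESeq2 called it at an adjusted p of 2.16e-06, the lowest of the alternatives, which reached 0.259.

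The 3 glutamate carriers SLC1A1, SLC1A2 and SLC1A3 did not move together. SLC1A2, or EAAT2, known as the main glutamate carrier of astrocytes, was lower without glutamine, at 64.0, 56.3 and 56.3 CPM with and 43.8, 35.5 and 47.6 CPM without. Its groups did not overlap and its log2 fold change came to -0.48 with SE 0.12 (adjusted p 0.0778, edgeR), or -0.41 (SE 0.11, edgeR adjusted p 0.0149) without replicate 1 with glutamine. SLC1A3, or EAAT1, was at 12.9 to 15.4 CPM with and 16.4 to 18.1 without, without overlap, at 0.31 on the log2 scale (SE 0.10, edgeR adjusted p 0.112), and at 0.40 (SE 0.09, edgeR adjusted p 0.00467) without that replicate. SLC1A1, or EAAC1, was at 2.49 to 5.07 CPM with and 3.41 to 3.70 without, the libraries without glutamine lying inside the range of the others. Replicate 1 with glutamine was the lowest library there, and leaving it out moved the log2 difference from -0.19 (edgeR adjusted p 0.641) to -0.45 (SE 0.12, edgeR adjusted p 0.0123).

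**Figure D3:**
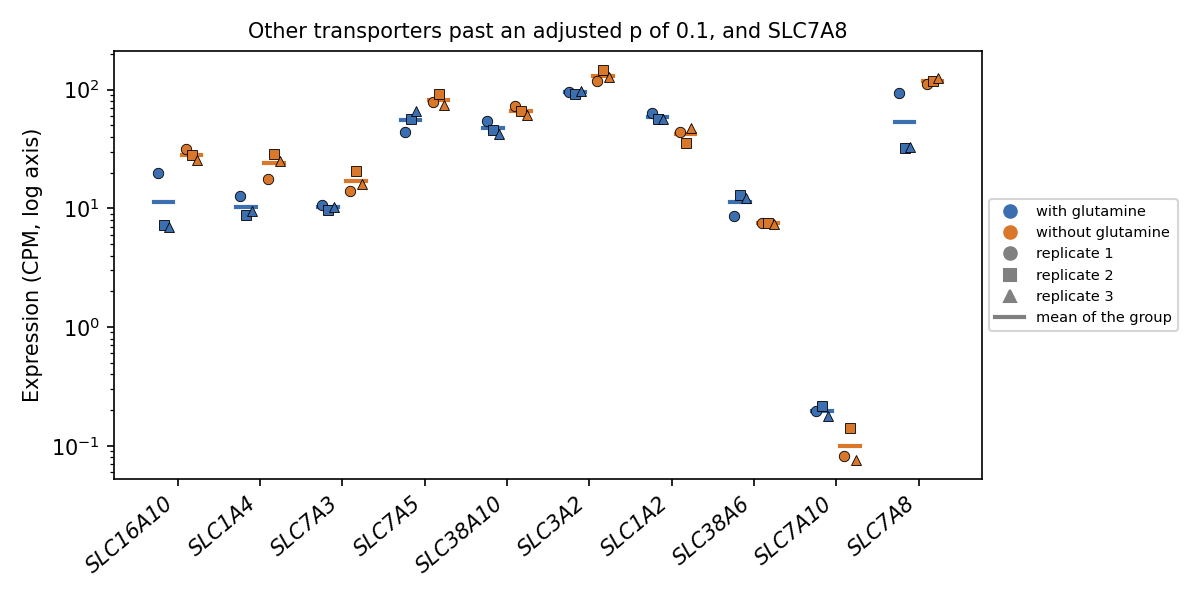
Expression in each library, in CPM on a log axis, of the 9 transporters other than glutamine carriers with an edgeR adjusted p under 0.1, and of SLC7A8; colours give the group, symbols the replicate and bars the group mean. Replicate 1 with glutamine (blue circle) lies with its own group for SLC3A2 and SLC7A3 and toward the libraries without glutamine for SLC16A10 and SLC7A8.

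The cationic carriers SLC7A1, SLC7A2 and SLC7A3, which import arginine, lysine and ornithine, differed in abundance and had log2 fold changes of 0.09 to 0.72. Whether these fold changes differed from each other was not tested. SLC7A3, or CAT3, the least counted of the 3, was at 10.7, 9.73 and 10.3 CPM with glutamine and at 14.1, 20.6 and 16.1 CPM without. The groups did not overlap, and the log2 fold change came to 0.72 with SE 0.15 (adjusted p 0.0694, edgeR), with 0.76 (SE 0.15, edgeR adjusted p 0.0029) without replicate 1 with glutamine. Its adjusted p ran from 0.000612 to 0.259 over the alternatives. SLC7A1, or CAT1, the general arginine importer, was at 79.1 to 94.2 CPM with and 95.4 to 101 without, a log2 difference of 0.19 with SE 0.08 (adjusted p 0.167, edgeR). SLC7A2, or CAT2, was at 43.0 to 48.9 CPM with and 44.5 to 52.0 without, and its groups overlapped.

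The remaining SLC38 members split by direction. SLC38A10, whose substrates are less well defined, was at 54.5, 46.1 and 42.5 CPM with glutamine and 72.6, 65.7 and 60.6 CPM without, with no overlap, a log2 difference of 0.47 with SE 0.12 (adjusted p 0.074, edgeR). SLC38A6 was at 8.68, 12.8 and 12.2 CPM with glutamine and at 7.57, 7.53 and 7.35 CPM without, with no overlap, a log2 difference of -0.59 with SE 0.16 (adjusted p 0.0825, edgeR). Replicate 1 with glutamine was the lowest of its group for SLC38A6 and the highest for SLC38A10, on the side of the other group in both. Leaving it out gave 0.58 for SLC38A10 (SE 0.09, edgeR adjusted p 0.000716) and -0.74 for SLC38A6 (SE 0.09, edgeR adjusted p 0.000153). SLC38A9, the lysosomal arginine sensor of the mTORC1 pathway, was at 42.0 to 47.2 CPM with and 39.2 to 44.4 without, and SLC38A4 at 1.65 to 2.75 with and 1.72 to 2.09 without. Both overlapped between groups, with edgeR adjusted p of 0.292 and 0.532 in the fit of all libraries and of 0.0729 and 0.0795 without that replicate.

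Aromatic and branched-chain facilitators and the proton-coupled lysosomal carriers included the highest fold change of the list. SLC16A10, or TAT1, which lets aromatic amino acids cross in both directions, was at 19.6, 7.27 and 7.01 CPM with glutamine and at 31.4, 28.1 and 25.7 CPM without. The groups did not overlap, and replicate 1 with glutamine lay between the others of its group and the libraries without. The log2 fold change came to 1.33 with SE 0.39 (adjusted p 0.0906, edgeR) with all libraries and 1.99 (SE 0.11, edgeR adjusted p 9.84e-07) without that replicate, and the adjusted p ran up to 0.279 over the alternatives. The leucine-preferring facilitators SLC43A1 (LAT3) and SLC43A2 (LAT4) were at 12.5 to 13.9 and 4.44 to 6.63 CPM with glutamine and at 10.3 to 12.2 and 6.05 to 6.98 CPM without. The first was lower without overlap and the second overlapped. The log2 difference of SLC43A2 went from 0.26 (edgeR adjusted p 0.334) to 0.44 (SE 0.12, edgeR adjusted p 0.0145) without replicate 1 with glutamine. SLC36A1, or PAT1, a proton-coupled carrier of small amino acids on lysosomes, was at 16.8 to 18.4 CPM with and 13.8 to 16.0 without, a log2 difference of -0.23 with SE 0.09 (adjusted p 0.158, edgeR, and 0.0779 without that replicate). SLC36A4, a carrier of proline and tryptophan, was at 85.2 to 88.9 and 84.5 to 92.8 CPM.

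None of the 4 SLC6 carriers had an adjusted p under 0.1 in the fit of all 6 libraries. SLC6A8, the creatine transporter, was at 36.0, 19.6 and 20.3 CPM with glutamine and 34.1 to 36.9 CPM without, and replicate 1 with glutamine lay inside the range of the other group. SLC6A15, a carrier of proline and branched-chain amino acids, showed the mirror image, at 26.3, 43.9 and 42.0 CPM with and 25.6 to 30.8 without. In the fit without that replicate, SLC6A8 differed by 0.84 on the log2 scale (SE 0.08, edgeR adjusted p 2.83e-05, range over the alternatives up to 0.474) and SLC6A15 by -0.59 (SE 0.09, edgeR adjusted p 0.000593, up to 0.515). SLC6A6, the taurine transporter, and SLC6A9, the glycine transporter GLYT1, varied little, at 65.5 to 73.9 and 22.6 to 24.4 CPM over all 6 libraries. SLC6A9 was still higher in each library without glutamine, at a log2 fold change of 0.05.

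The transporters fell on both sides in replicate 1 with glutamine. Its position was measured on a log2 scale from the mean of the other 2 libraries of its group, at 0, to the mean of the libraries without glutamine, at 1, for the 20 members in which these means differed by at least 0.3. It lay nearer its own group (under 0.5) for 7 members: SLC7A5 (-1.16), SLC1A5 (-0.58), SLC1A2 (-0.44), SLC3A2 (-0.01), SLC7A10 (-0.002), SLC7A3 (0.14) and SLC1A4 (0.35). For the other 13 it lay nearer the libraries without glutamine, among them SLC16A10 (0.73), SLC7A8 (0.82), SLC6A8 (1.01), SLC38A5 (1.07) and SLC6A15 (1.18). Of the 10 members past an adjusted p of 0.1, 7 were therefore near their own group in that library, and SLC38A10 (0.52), SLC38A6 (0.71) and SLC16A10 were not. A library that lies with its group narrows the spread and lowers p, so that count is no separate result.

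**Figure D4:**
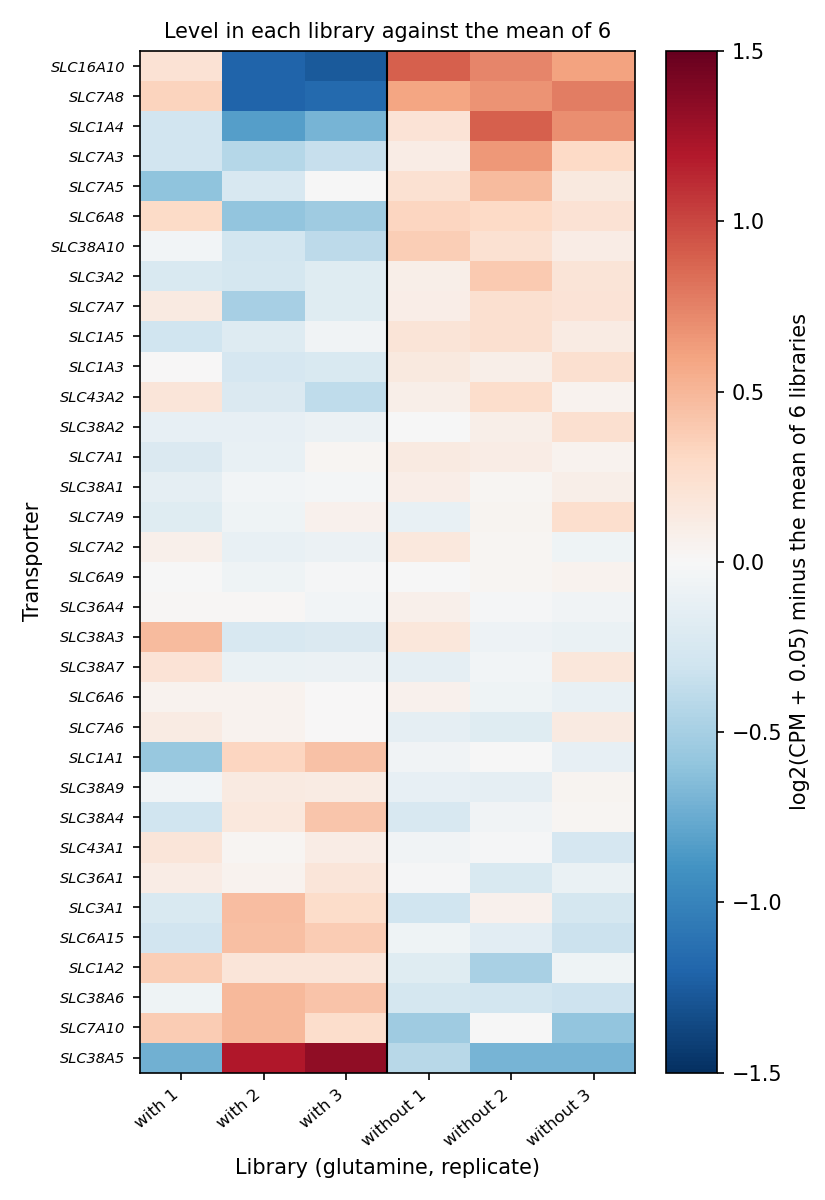
Level of each of the 34 transporters (rows) in each library (columns), as log2(CPM + 0.05) minus the mean of the 6 libraries, with red above and blue below that mean; rows run from highest to lowest difference between groups. Replicate 1 with glutamine (first column) is on the red side for SLC7A8, SLC16A10 and SLC6A8 and on the blue side for SLC38A5 and SLC6A15, unlike the other libraries of its group.

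DESeq2, run on all 6 libraries, called 10 of the 34 transporters (29.4%) at an adjusted p under 0.05, where 14% of the 21759 genes it adjusted over were called. The 7 higher ones (background 7.54%) were SLC1A4, SLC7A3, SLC3A2, SLC38A10, SLC7A5, SLC1A5 and SLC16A10, and the 3 lower ones (background 6.44%) SLC38A5, SLC38A6 and SLC1A2. Groups were separated in CPM for 18 of 34 members (52.9%, background 34.2%), 13 higher (background 17.3%) and 5 lower (background 16.9%). In each of these readings the share of transporters that were higher exceeded the background share, while the share that were lower was near it, and no test of the list was made.

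Other genes of the pathway were counted from lists fixed together with the members. Of 29 further amino acid carriers of the plasma membrane, mitochondrion and lysosome, 18 passed the filter, and 3 (16.7%) had an edgeR adjusted p under 0.1, near the 14.5% of all tested genes, 2 higher and 1 lower. In the fit without replicate 1 with glutamine, 8 of the 18 (44.4%, background 41.3%) had one under 0.05, 6 higher and 2 lower. The 3 of the fit of all libraries were SLC7A11, the lysosomal cationic carrier SLC66A1 (11.1 to 13.0 CPM with, 14.3 to 15.1 without) and the glutamate carrier SLC1A6 (8.27 to 12.9 with, 7.14 to 7.19 without). The lysosomal histidine and peptide carrier SLC15A4 followed, at 25.2 to 30.3 CPM with and 30.3 to 33.0 without (edgeR adjusted p 0.156). Of 25 regulators and non-transporter genes of the amino acid response, 24 passed the filter. With all 6 libraries, 15 had a positive and 9 a negative log2 fold change, none passed an edgeR adjusted p of 0.05, and 10 were higher (41.7%, background 7.3%) and 0 lower (background 7.23%) at an edgeR adjusted p under 0.1. When replicate 1 with glutamine was left out, 10 were higher (background 22.3%) and 6 lower (background 19%) at an edgeR adjusted p under 0.05. The 6 lower ones, named after their values were seen, were DDIT4, an inhibitor of mTORC1 signalling, at -1.44 on the log2 scale (SE 0.09, edgeR adjusted p 2.67e-06), VLDLR (-1.08), STC2 (-0.68), JDP2 (-0.29), PYCR1 (-0.26) and EIF2AK4 (-0.24), which encodes GCN2. In each of these 6, replicate 1 with glutamine was below the other libraries of its group. MTHFD2, a mitochondrial folate enzyme, was at 94.4 to 106 CPM with and 126 to 157 without (log2 fold change 0.52, SE 0.10, edgeR adjusted p 0.0682). ATF5, a transcription factor related to ATF4, was at 12.1 to 16.2 CPM with and 21.0 to 36.9 without (1.08, SE 0.21, edgeR adjusted p 0.0689). CHAC1, which degrades glutathione, and ASNS, asparagine synthetase, were the other genes of smallest p, at 1.78 and 0.89 on the log2 scale. ATF4 itself, named here after its values were seen, was at 153 to 168 CPM with and 181 to 211 without (0.33, SE 0.08, edgeR adjusted p 0.0772).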

How the data were processed

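The authors deposited raw counts per Ensembl gene for 6 mRNA libraries (single 50-nt reads). The submitters' processing notes name cutadapt, Trim Galore, FastQC, STAR 2.5.2b, DESeq2 and GRCh38. The counting program, annotation, strand setting and treatment of multiply aligned reads are not given in the sources used here. Column headings name days 0 and 9 although every label says day 9, and columns were assigned through the sample descriptions, on which every direction rests. The deposited normalized table was not used.

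Of 60107 IDs, 56104 were paired with a symbol. Genes were kept by filterByExpr (22613 genes, 99.95% of counts) and tested with edgeR 4.0.16 (R 4.3.3; TMM, quasi-likelihood F test, legacy = FALSE, Benjamini-Hochberg adjustment over all genes tested). Standard errors were derived from the fold change and its F statistic (|log2 fold change| over the root of F). CPM use the TMM-scaled library size. Levels per kilobase use GENCODE 29 exon lengths. DESeq2 1.42.0 and limma 3.58.1 gave alternatives. With 3 libraries against 3, an exact permutation test of 1 gene cannot go below 0.1, so none was made.

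On simulated counts with 200 genes changed (22183 genes, all 6 libraries), 78.5% were recovered with 8 false calls. Recovery was 63% for log2 changes of 1 and 94% for 2. Without replicate 1 with glutamine (22639 genes), 194 of the 200 were recovered with 27 false calls, more than the threshold allows for. Counts were drawn gene by gene, from the same mean for all libraries of a group apart from library size. A library that departs from its group across genes, as replicate 1 with glutamine did, was not simulated. The recovery in the real fits can therefore differ.

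The members, lists and thresholds were chosen with earlier results of these data known. Full values were given for glutamine carriers, for members under an adjusted p of 0.1, and for members whose groups do not overlap with a log2 difference of 0.5 or more. Outside the members, SLC7A11 and up to 4 genes of smallest p per list were named. The 5 further motifs below were searched for in the same windows on both strands. TGATGCAA was held by 3 of 27 members (1.08% of all genes), TGANGNAA by 9 (17.6%), TGACGTCA by 0 (2.25%), the antioxidant response element by 3 (3.94%) and CACGTG by 8 (8.77%). TGATGCAA and TGANGNAA overlap TGATGNAA.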

Additional observations from a re-analysis of the deposited data

How the results depend on the processing

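The count of genes under an edgeR adjusted p of 0.05 was 1 of all tested genes and 0 of the transporters. Over all genes it was 0 under upper quartile scaling, edgeR's legacy setting and limma-voom, 2 with no filter and 3041 with DESeq2, which called 10 transporters. With 1 library left out it ran from 0 to 9573 for all genes, from 0 to 17 for the transporters and, at an adjusted p under 0.1, from 0 to 22 for the transporters, each highest without replicate 1 with glutamine. That library alone raised the count of transporters: without replicate 1 of the group without glutamine, 17 genes but no transporter were called. The 10 transporters under 0.1 became 5 with no filter. Same-numbered libraries did not deviate together (correlations -0.021, 0 and 0.028). Adding the replicate block left 0 genes under 0.05 and 0 transporters under 0.1. The median log2 fold change of the glutamine carriers (0.063) and of the others (0.070) fell to 0.018 and 0.025 under upper quartile scaling, became 0.181 and 0.031 under the wide definition of glutamine carriers, and ran from 0.033 to 0.165 and from 0.035 to 0.077 with 1 library left out. Without replicate 1 with glutamine, 15 to 18 transporters were called under 4 alternatives chosen after seeing the data (DESeq2, limma-voom, legacy and no filter). The causes were not tested. Of 510 values of single transporters under alternatives, 474 had the same sign and the same call at 0.05, 27 were newly called and 9 changed sign, in 3 genes. SLC36A4 (0.01) was -0.037 under upper quartile scaling and ran from -0.029 to 0.033 with 1 library left out, SLC38A3 ran from -0.173 to 0.241 and SLC38A7 from -0.105 to 0.1. The median of all genes stayed within 0.1 of 0 under each scaling. Under upper quartile scaling it was -0.043, beside 0.001 in the main fit, so both list medians fell there together with that of all genes. Depth limits SLC7A10, SLC3A1 and SLC7A9, with 6 to 46 counts in a library.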
